A study of Mus musculus with 6 samples.

Results

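Transcripts of 10 genes that act upstream of, or beside, the LATS kinases in the Hippo pathway were followed in mouse ovarian surface epithelial cells, the layer of cells that covers the ovary. The 10 genes were taken from a list by symbol, and all 10 were found among the 48440 genes of the count table. They encode the MST kinases (Stk3, Stk4), their adaptor SAV1 (Sav1), the MOB1 coactivators of LATS (Mob1a, Mob1b), the membrane scaffolds merlin and the WWC proteins (Nf2, Wwc1, Wwc2) and 2 TAO kinases (Taok1, Taok3). RNA was sequenced after poly(A) selection 7 days after the cells received an adenovirus. Controls received Ad-GFP, a virus that carries green fluorescent protein, and are labelled WT (3 libraries). Knockout cells received Ad-Cre-GFP, which also carries the Cre recombinase, and are labelled Lats1/2 knockout (3 libraries). All 6 libraries therefore come from virus-exposed cells, and deletion of the 2 LATS genes, exposure to Cre and any difference between the cultures cannot be told apart. The sex, age and strain of the source animals, the alleles that Cre acts on and the number of separate cultures are not stated in the labels. The p-values therefore cover the spread among these 6 libraries only, and that spread may be technical.

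In the Hippo pathway, TAO kinases activate the MST kinases, and MST bound to SAV1 phosphorylates LATS and MOB1. Merlin and the WWC proteins, of which WWC1 is also called KIBRA, bring LATS to the membrane, where it is activated. Active LATS phosphorylates YAP and TAZ and keeps these coactivators of the TEAD transcription factors out of the nucleus. Several pathway genes are themselves known targets of YAP and TAZ, in a feedback that restrains the coactivators. In epithelia the pathway is known for limiting cell number and for responding to cell density, polarity and tension.

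The libraries held 18690235 to 30304033 counts, and every knockout library was deeper than every control library. Lats1 and Lats2, the targeted genes, were at 159 and 130 CPM in controls and at 37.1 and 98.7 CPM in the knockout. CPM are counts scaled to a common library total, with the trimmed mean of M-values (TMM). The groups did not overlap for either gene, as for 73.0% of all tested genes. The change of Lats2 was of ordinary size, and 54.8% of tested genes changed by as little or less. The counts cover whole genes, so the remaining Lats2 reads do not measure its deletion. Of 12 markers of ovarian surface epithelium, the knockout had 5 called higher and 6 called lower (adjusted p below 0.05). Of all tested genes, 34.0% were called higher and 35.8% lower. Krt18 (564 and 596 CPM in control and knockout), Msln (413 and 887 CPM) and Upk3b (42.6 and 88.3 CPM) rose, and Krt8 (350 and 306 CPM), Krt19 (560 and 185 CPM), Gata4 (273 and 106 CPM) and Wt1 (201 and 90.6 CPM) fell. Lhx9 and Lrrn4 were below 1 CPM in both groups. Markers of other cell types were partly at 0 and partly expressed. Adgre1, Tie1, Emcn, Lum, Thy1, Fshr and Cyp19a1 had no count in any library, and a count of 0 allows up to 3 counts per library, for counting error only. Summed over each list without TMM scaling, 8 immune markers ran from 11.2 to 13.6 CPM in controls and from 6.86 to 7.25 CPM in the knockout, mostly Cd14. Endothelial markers (6 genes) ran from 3.05 to 3.08 and from 9.88 to 11.2 CPM, mostly Flt1. Fibroblast markers (7 genes) ran from 380 to 398 and from 271 to 291 CPM, mostly Col1a1, and granulosa and theca markers (8 genes) from 135 to 136 and from 98.1 to 99.4 CPM, mostly Nr5a1. With TMM scaling, the endothelial markers Flt1 (2.77 and 8.48 CPM in control and knockout) and Kdr (0.0565 and 2.00 CPM) rose. Pecam1 (0.200 and 0.116 CPM) and Cdh5 (0 and 0.0345 CPM) were near 0 in both groups. Dcn, a fibroblast marker, fell from 93.0 to 24.7 CPM, and Star, a theca marker, from 25.2 to 5.83 CPM. Of the 5 tested granulosa and theca markers, 2 were called higher and 3, with Star, lower. The 2 that rose were low, Amh (0.910 and 2.07 CPM in control and knockout) and Foxl2 (0.137 and 0.721 CPM). These lists moved with the groups, and their part in the results was not tested. In bulk RNA, a change in the share of a cell type and a change in RNA per cell cannot be told apart.

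All 10 genes passed the filter on low counts and were tested with edgeR's quasi-likelihood test among 14811 genes, and all 10 were called (Benjamini-Hochberg adjusted p below 0.05). Of all tested genes, 69.8% were called, so a call by itself says little about these 10. Wwc1, Wwc2, Stk4, Nf2, Stk3 and Mob1a were higher in the knockout, against 34.0% of all tested genes called higher. Mob1b, Taok3, Sav1 and Taok1 were lower, against 35.8% called lower. The groups did not overlap for any of the 10 genes, as for 73.0% of all tested genes. The changes differed widely in size. Their median absolute log2 change was 0.38, beside 0.35 over all tested genes, and their median signed change was 0.13, beside -0.01. Of the 10, 4 (Wwc1, Wwc2, Stk4 and Nf2) were above the third quartile of absolute change over all tested genes, a log2 change of 0.68. Only Wwc1 was above the 90th percentile, 1.21.

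**Figure D1:**
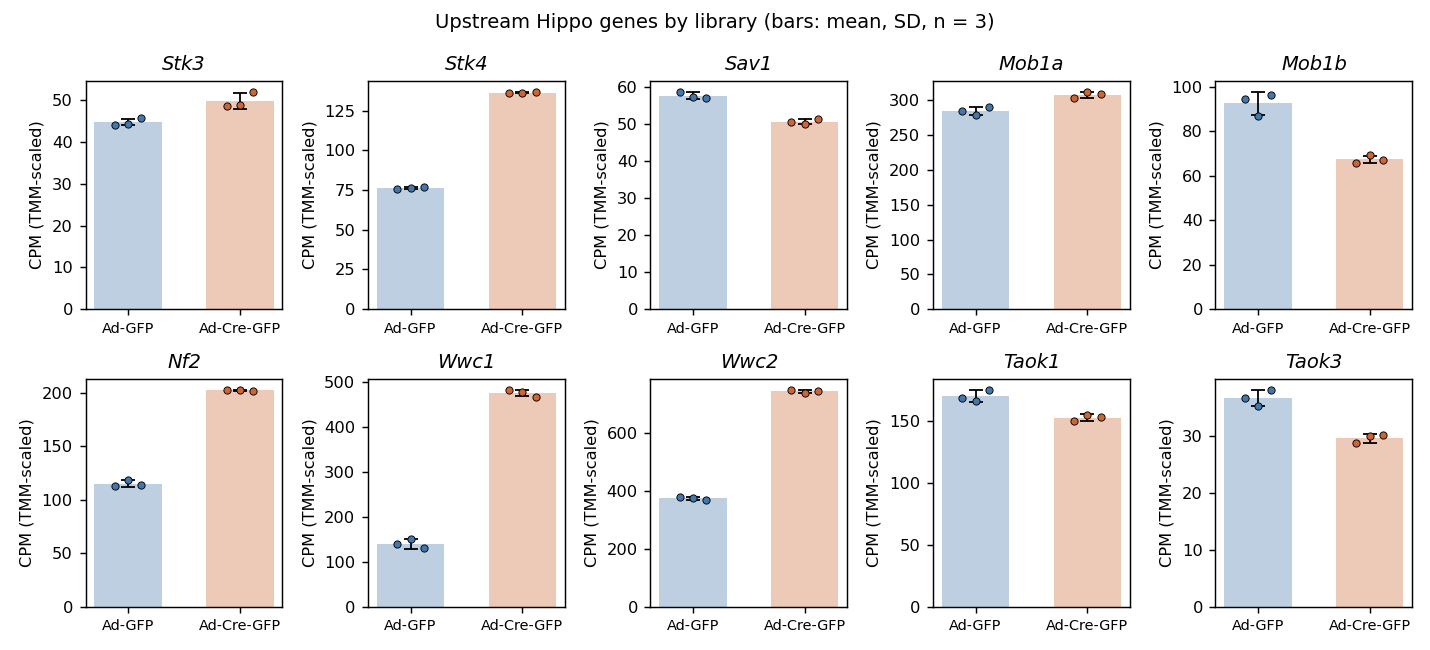
TMM-scaled CPM of each of the 10 genes (y axis, from 0) in the 3 Ad-GFP and 3 Ad-Cre-GFP libraries (points), with the mean (bar) and SD (error bar). No gene has a knockout library inside the range of its control libraries, but the distance ranges from 3.01 CPM between the nearest libraries of Stk3 to 360 CPM for Wwc2.

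The sequences upstream of the 4 genes that rose most are shown because these genes moved in the same direction. They run from 250 bases before to 50 bases after the start that RefSeq gives on GRCm38.p6, and are written 5′ to 3′ on the gene's strand. Capitals mark GGAATG or its reverse complement CATTCC, the core of the element that TEAD proteins are known to bind. The gene positions printed with each gene are those of GENCODE, whose outermost start lies farther upstream for Stk4 and Wwc2, so that these 2 windows lie inside the GENCODE gene. The windows are Wwc1 at chr11:35980478-35980777 (minus strand), Wwc2 at chr8:47990495-47990794 (minus), Stk4 at chr2:164073888-164074187 (plus) and the first of 2 listed starts of Nf2 at chr11:4849495-4849794 (minus).
Wwc1: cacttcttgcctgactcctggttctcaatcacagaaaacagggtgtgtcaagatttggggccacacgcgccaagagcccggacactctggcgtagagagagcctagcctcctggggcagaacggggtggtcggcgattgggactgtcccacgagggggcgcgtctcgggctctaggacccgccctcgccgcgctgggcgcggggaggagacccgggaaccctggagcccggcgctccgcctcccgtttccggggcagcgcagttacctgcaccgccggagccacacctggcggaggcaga
Wwc2: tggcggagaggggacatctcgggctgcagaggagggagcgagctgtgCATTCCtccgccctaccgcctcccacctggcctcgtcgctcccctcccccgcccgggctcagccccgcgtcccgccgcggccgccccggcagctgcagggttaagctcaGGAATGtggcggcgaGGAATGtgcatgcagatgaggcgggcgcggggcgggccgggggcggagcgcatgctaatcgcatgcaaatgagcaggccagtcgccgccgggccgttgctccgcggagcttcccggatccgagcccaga
Stk4: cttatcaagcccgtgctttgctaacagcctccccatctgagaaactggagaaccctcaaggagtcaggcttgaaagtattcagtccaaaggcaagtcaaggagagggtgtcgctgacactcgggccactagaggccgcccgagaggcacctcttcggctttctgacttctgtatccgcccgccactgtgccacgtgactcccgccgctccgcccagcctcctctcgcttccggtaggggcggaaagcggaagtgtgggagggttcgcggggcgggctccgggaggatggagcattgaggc
Nf2: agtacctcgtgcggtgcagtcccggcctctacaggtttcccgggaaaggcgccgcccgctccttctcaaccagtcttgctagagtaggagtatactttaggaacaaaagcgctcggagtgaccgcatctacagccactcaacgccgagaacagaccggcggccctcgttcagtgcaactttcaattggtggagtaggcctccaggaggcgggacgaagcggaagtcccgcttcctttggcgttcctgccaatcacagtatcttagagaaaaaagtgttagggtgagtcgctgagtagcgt

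The Wwc2 window held 3 matches, CATTCC at bases 48 to 53 and GGAATG at bases 157 to 162 and 172 to 177, counted from the 5′ end of the printed sequence. The windows of Wwc1, Stk4 and Nf2 held none. Of 32851 promoter windows of 300 bases in the same table, 14.7% held at least 1 match on either strand and 0.131% (43 windows) held 3 or more. Of the 10 genes, 9 matched the table, and Sav1 and Mob1a held 1 match each. Whether matches in these windows bear on the changes was not tested. A match is a string of letters and not a measured binding site, and the window covers only a small part of the sequence around a gene.

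The WWC scaffold genes changed most. Wwc1 (ENSMUSG00000018849.6, chromosome 11, 35838400 to 35980527, minus strand, GRCm38), which encodes KIBRA, was at 139.98, 152 and 130 CPM in the control libraries and at 482, 479 and 468 CPM in the knockout libraries. Every knockout library was more than 300 CPM above the highest control, a gap of 316 CPM beside a range of 21.8 CPM within the controls. The change was 3.38-fold, or 1.76 ± 0.04 on the log2 scale (SE, adjusted p = 3.89e-16), larger in size than that of 94.6% of tested genes. Wwc2 (ENSMUSG00000031563.7, chromosome 8, 47823959 to 47990924, minus strand), the paralog of Wwc1, was at 379, 376 and 368 CPM in controls and at 749, 739 and 744 CPM in the knockout. The libraries of each group lay within 10.5 CPM of each other, and the change was 1.99-fold (log2 0.99 ± 0.03, adjusted p = 6.30e-18). Summed per kilobase of merged exons, the WWC pair was at 55.5 ± 2.48 CPM per kilobase in controls and at 150.1 ± 1.63 in the knockout (SD, n = 3).

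Transcripts of Nf2, the third scaffold gene, were also higher in the knockout. Nf2 (ENSMUSG00000009073.16, chromosome 11, 4765845 to 4849536, minus strand) encodes merlin, a membrane-linked tumour suppressor that binds LATS. It was at 112, 118 and 113 CPM in controls and at 203, 202 and 202 CPM in the knockout, 1.76-fold higher (log2 0.82 ± 0.03, adjusted p = 8.57e-16). The 3 knockout libraries lay within 1.10 CPM of each other. Nf2, Wwc1 and Wwc2, the 3 membrane scaffold genes among the 10, were all called higher, beside 34.0% of all tested genes. Of 16 tested membrane and junction partners outside the 10, 10 were called higher and 5 lower.

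The MST kinase genes differed from each other. Stk4 (ENSMUSG00000018209.15, chromosome 2, 164070322 to 164155524, plus strand), which encodes MST1, was at 75.7, 76.1 and 76.6 CPM in controls and at 136.2, 136.2 and 136.8 CPM in the knockout. The change was 1.79-fold (log2 0.84 ± 0.03, adjusted p = 5.63e-16). Stk3 (ENSMUSG00000022329.14, chromosome 15, 34875496 to 35178921, minus strand), which encodes MST2, was at 44.2, 44.4 and 45.7 CPM in controls and at 48.7, 48.8 and 51.98 CPM in the knockout. The gap between the nearest libraries was 3.01 CPM, smaller than the 3.27 CPM range of the knockout libraries, and the change was 1.11-fold (log2 0.16 ± 0.04, adjusted p = 0.00283). Sav1 (ENSMUSG00000021067.7, chromosome 12, 69965012 to 69987002, minus strand), the adaptor that binds MST through the SARAH domain, went the other way. It was at 58.6, 57.2 and 57.1 CPM in controls and at 50.5, 49.99 and 51.4 CPM in the knockout, a log2 change of -0.19 ± 0.04 (adjusted p = 0.000186). Per kilobase of merged exons, there was 53.9 ± 1.28 of Sav1 for 100 of Stk3 and Stk4 together in controls and 30.6 ± 0.168 in the knockout (SD, n = 3). With the length of the longest transcript instead, these values were 60.97 and 36.6. Transcript ratios do not measure the proteins of the complex.

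The 2 MOB1 genes changed in opposite directions. Mob1a (ENSMUSG00000043131.14, chromosome 6, 83326016 to 83343776, plus strand) was at 285, 279 and 291 CPM in controls and at 304, 311 and 309 CPM in the knockout. This was the smallest change of the 10, 1.08-fold (log2 0.11 ± 0.03, adjusted p = 0.00180), and 18.9% of tested genes changed by as little or less. Mob1b (ENSMUSG00000006262.15, chromosome 5, 88720855 to 88764220, plus strand), whose protein is nearly identical to that of Mob1a, was at 94.7, 86.7 and 96.3 CPM in controls and at 65.7, 69.1 and 67.3 CPM in the knockout. It had the largest fall of the 10 (log2 -0.46 ± 0.04, adjusted p = 1.63e-09). Because Mob1a is the far more abundant of the 2, the summed MOB1 level per kilobase was 65.6 ± 1.59 in controls and 68.7 ± 0.956 in the knockout (SD, n = 3). The groups were close in this sum, with the highest control library at 67.04 and the lowest knockout library at 67.7 CPM per kilobase.

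Both TAO kinase genes fell by small amounts. Taok1 (ENSMUSG00000017291.13, chromosome 11, 77529162 to 77607815, minus strand) was at 169, 166 and 175 CPM in controls and at 149.9, 155 and 153 CPM in the knockout (log2 -0.15 ± 0.03, adjusted p = 0.000177). The size of this fall shrank to -0.08 (adjusted p = 0.0214) when trends with GC content and transcript length were removed from each library. Taok3 (ENSMUSG00000061288.13, chromosome 5, 117120129 to 117275219, plus strand), the least abundant of the 10 genes, was at 36.5, 35.1 and 38.1 CPM in controls and at 28.7, 29.8 and 30.2 CPM in the knockout (log2 -0.30 ± 0.05, adjusted p = 1.08e-05). It was read from 718 to 898 counts per library. Taok2, the third TAO kinase gene and no member of the 10, also fell, from 89.9 ± 1.03 to 67.4 ± 1.15 CPM (log2 -0.42 ± 0.03, adjusted p = 4.39e-10, SD, n = 3).

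**Figure D2:**
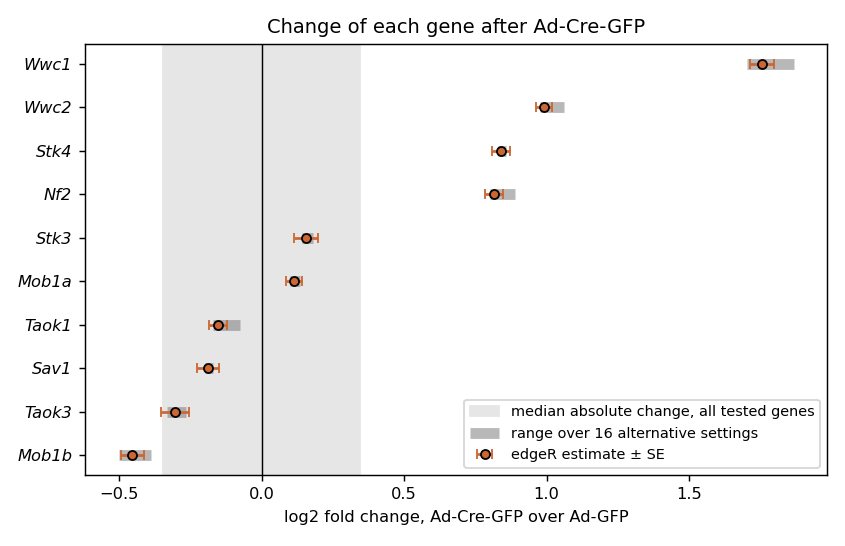
Log2 fold change of each gene (x axis, Ad-Cre-GFP over Ad-GFP) with its SE (points and bars), the range over 16 alternative settings (dark bands) and the median absolute change of all tested genes (light band, 0.35 on each side of 0). Wwc1, Wwc2, Stk4, Nf2 and Mob1b lie outside the light band, and no range over settings crosses 0.

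Levels were compared between genes per kilobase, with merged exons as the length. In controls Mob1a stood highest at 59.4 ± 1.26 CPM per kilobase, followed by Wwc1 (28.4 ± 2.21), Wwc2 (27.2 ± 0.392), Nf2 (16.8 ± 0.4696), Taok1 (13.7 ± 0.387), Stk4 (12.99 ± 0.0792), Sav1 (10.9 ± 0.162), Stk3 (7.32 ± 0.134), Mob1b (6.16 ± 0.343) and Taok3 (3.28 ± 0.131). The libraries of Wwc1 (26.3 to 30.7) and Wwc2 (26.7 to 27.5) overlapped, so these neighbours did not differ beyond their spread. No other neighbours in the control order overlapped. In the knockout Wwc1 stood highest at 96.1 ± 1.49 CPM per kilobase, above Mob1a (64.3 ± 0.848) and Wwc2 (53.97 ± 0.379), and Stk4 (23.3 ± 0.0570) stood above Taok1 (12.3 ± 0.212). The places of the others were unchanged. The order depends on the length used. With the longest transcript, Wwc2 (43.1) stood above Wwc1 (31.1) in controls, and Sav1 (17.2) above Stk4 (14.6) and Taok1 (13.7), whereas Wwc1 (105) stayed highest in the knockout.

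**Figure D3:**
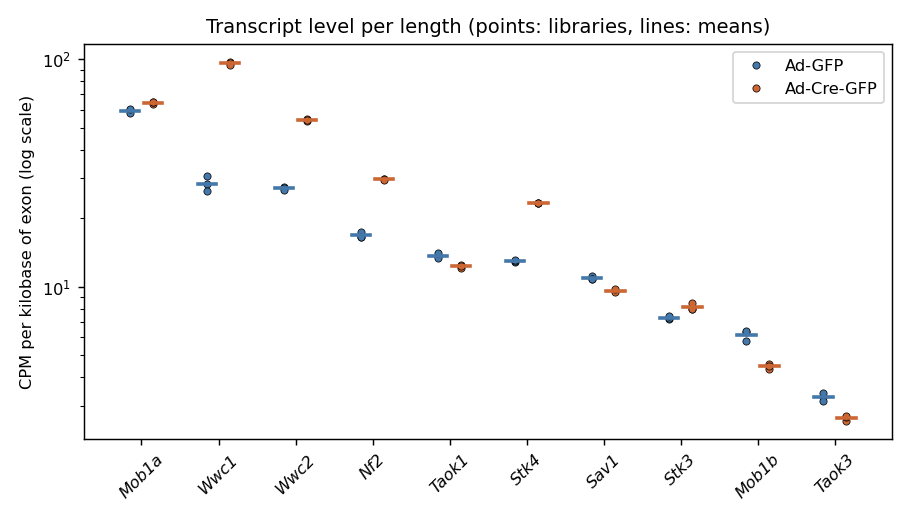
TMM-scaled CPM per kilobase of merged exons (y axis, log scale) for each gene, ordered by its control mean, with each library as a point and the group mean as a line. Wwc1 moves from 28.4 to 96.1 and passes Mob1a, and the 5 least abundant genes of the knockout are at most 12.3.

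The balance within paralog families does not depend on how libraries are scaled, so it was read as shares of counts per kilobase within each library. Of Stk3 and Stk4 together, Stk3 made up 35.9%, 35.9% and 36.4% in the control libraries and 25.5%, 25.6% and 26.7% in the knockout libraries. Of Wwc1 and Wwc2, Wwc1 made up 50.7%, 52.9% and 49.6% in controls and 64.1%, 64.3% and 63.6% in the knockout. The MST pair thus moved toward Stk4 by 10.1 percentage points and the WWC pair toward Wwc1 by 12.98 points. Of Mob1a and Mob1b, Mob1a made up 90.6% ± 0.309 in controls and 93.5% ± 0.0802 in the knockout (SD, n = 3). The size of this shift, 2.86 percentage points, depends on the length used and was 4.06 with the longest transcript and 6.57 without length scaling. Of the 3 TAO kinase genes, Taok1 made up 51.4% ± 0.664 in controls and 55.4% ± 0.0770 in the knockout (SD, n = 3). The shares themselves also depend on the length used. With the longest transcript, Stk3 and Stk4 were at 13.6 and 14.6 CPM per kilobase in controls, beside 7.32 and 12.99 with merged exons. Taok1 and Taok3 were at 13.7 and 8.19, beside 13.7 and 3.28. In all 4 families the control and knockout libraries did not overlap. An exact 2-sided permutation test gave p = 0.1 for each of the 4, which is the smallest p that 3 against 3 libraries allow and stays 0.1 after Benjamini-Hochberg adjustment over the 4.

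**Figure D4:**
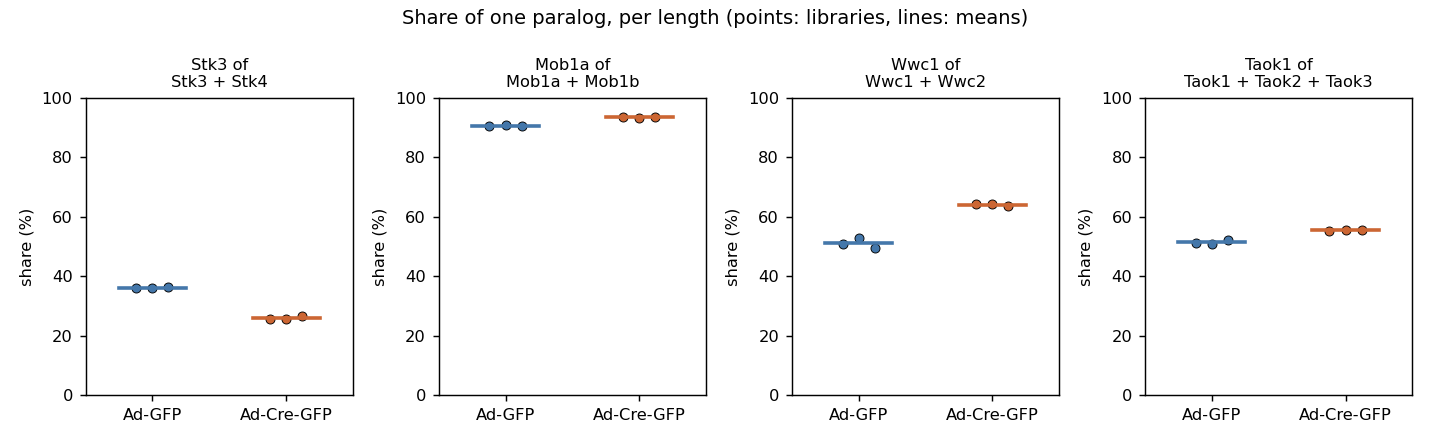
Share of 1 paralog within its family in percent (y axis, 0 to 100), from counts per kilobase of merged exons, in each library (points) with the group mean (line). The share of Stk3 goes from 36.04% to 25.9% and that of Wwc1 from 51.05% to 64.03%, and those of Mob1a and Taok1 move by 2.86 and 4.01 percentage points.

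The other genes of the pathway were read from 6 lists in the same fit, in which 69.8% of all tested genes were called, 34.0% higher and 35.8% lower. Among 10 genes of the downstream core, 3 were called higher and 5 lower (median log2 change -0.16, beside -0.01 over all tested genes). Lats1 and Lats2, the targeted genes, are among the 5 lower and enter the median. Neither value therefore describes the genes downstream of LATS alone. Besides Lats1 (log2 -2.10 ± 0.04), the smallest adjusted p-values were those of the DNA-binding partners of YAP, Tead4 (1.96 ± 0.06) and Tead1 (0.83 ± 0.03). Yap1 (0.01 ± 0.03) and Wwtr1 (-0.04 ± 0.03), which encodes TAZ, were not called. Among other kinases known to act upstream of LATS or MST, 1 of 10 tested genes was called higher and 6 lower (median -0.23). Mark2 (-0.76 ± 0.03), Mink1 (-0.51 ± 0.03) and Taok2 fell, and Map4k1 (0.52 ± 0.27), Map4k3 (-0.07 ± 0.05) and Map4k4 (-0.04 ± 0.03) were not called. Map4k1 was low (0.611 and 0.889 CPM in control and knockout), whereas Map4k4 was at 381 and 371 CPM. Of 6 RASSF genes, whose proteins share the SARAH domain with MST and SAV1, 4 were tested. Rassf1 rose from 28.1 ± 1.59 to 50.2 ± 0.570 CPM (SD, n = 3), Rassf5 rose as well, and Rassf2 (-1.60 ± 0.29) and Rassf3 (-0.62 ± 0.16) fell. Rassf2 (1.08 and 0.359 CPM in control and knockout) and Rassf3 (3.58 and 2.33 CPM) were low.

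STRIPAK is the phosphatase complex that removes the activating phosphate from the MST kinases. Of 18 genes of the complex, 5 were called higher and 9 lower (median -0.10), and 69.8% of all tested genes were called in either direction. Stk26 fell most, from 198 ± 16.5 to 19.4 ± 0.756 CPM (log2 -3.35 ± 0.06, adjusted p = 7.42e-14, SD, n = 3), and its relatives Stk25 (-0.41 ± 0.04) and Stk24 (-0.34 ± 0.03) fell too. These 3 encode the GCKIII kinases held by the complex. Strip2 (0.38 ± 0.21), Strn4 (0.07 ± 0.04), Ppp2ca (-0.05 ± 0.03), which encodes a catalytic subunit of the phosphatase, and Mob4 (0.04 ± 0.04) were not called. Strip2 was low, at 1.09 CPM in controls and 1.41 CPM in the knockout. Membrane and junction partners had the highest median of the 6 lists, 0.26, with 10 of 16 tested genes called higher and 5 lower, beside 34.0% and 35.8% of all tested genes. Amotl2 (1.32 ± 0.03), an angiomotin, and Ptpn14 (0.93 ± 0.03), a phosphatase that binds YAP and the WWC proteins, rose, and Amotl1 (-0.99 ± 0.04) fell. Patj, a polarity scaffold, was not called (-0.01 ± 0.05). Of 10 ubiquitin ligase genes, 3 were called higher and 5 lower (median -0.04). Btrc (-0.54 ± 0.05), a receptor of the ligase that degrades YAP, fell, Wwp1 (0.33 ± 0.04) and Ddb1 (0.19 ± 0.03) rose, and Siah2 (0.10 ± 0.06) and Cul4a (0.03 ± 0.03) were not called.

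**Figure D5:**
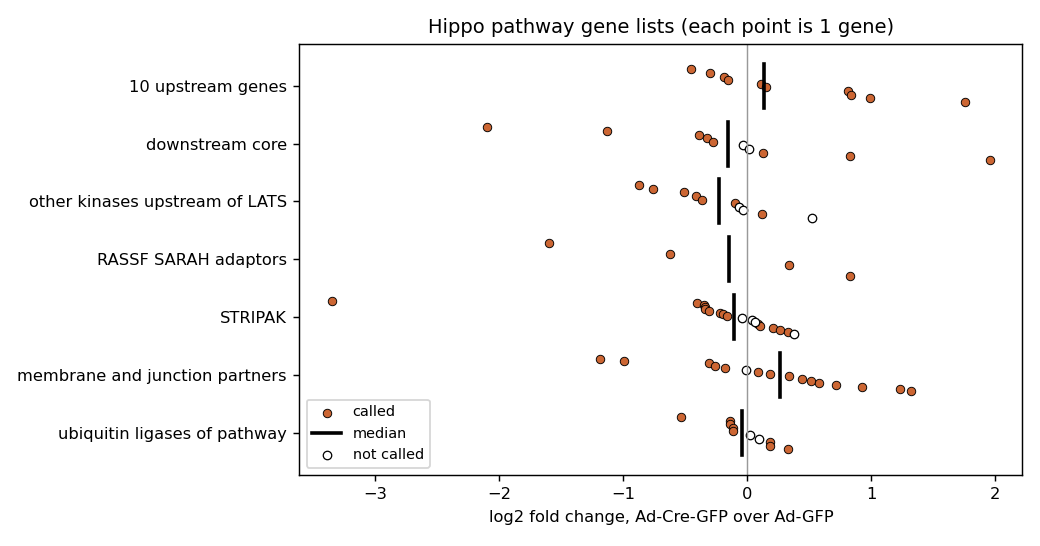
Log2 fold change (x axis, Ad-Cre-GFP over Ad-GFP) of each tested gene of the 10 upstream genes and the 6 other pathway lists (rows), with called genes filled, genes not called open and the median as a line. Medians run from -0.23 for the other upstream kinases to 0.26 for membrane and junction partners, and the downstream core (-2.10 to 1.96) and STRIPAK (-3.35 to 0.38) spread widely. The lowest point of the downstream core is the targeted Lats1.

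The pattern of Wwc1, the gene with the largest change, was compared with 12135 other tested genes with a symbol as the root mean square difference of log2(CPM + 1) over the 6 libraries, each gene centred on its mean. The closest were the septin gene Sept11 at 0.034, Fscn1, which encodes the actin-bundling protein fascin, at 0.036 and Pmp22, a membrane protein gene, at 0.042. Sept11 rose from 166 ± 10.1 to 579 ± 6.77 CPM, Fscn1 from 916 ± 67.3 to 2946 ± 71.2 CPM and Pmp22 from 9.84 ± 0.603 to 37.02 ± 0.541 CPM (SD, n = 3). In all 3 genes, as in Wwc1, Ad-GFP replicate 3 was the lowest and Ad-GFP replicate 2 the highest control library. This order follows in part from choosing the genes by their likeness to Wwc1 over the same libraries. With 6 libraries and 42 genes within 0.1 of Wwc1, this likeness describes these libraries only.

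Some members overlap other genes. Exons of Sav1 and Atl1, on opposite strands, share 1336 bases, and those of Wwc2 and Cldn22, also on opposite strands, share 995 bases. Because the use of strand in the counting is not known here, reads in these stretches cannot be assigned to 1 gene. Atl1 held 54 to 100 counts per library, 6.36% of the counts of Sav1 over all libraries, and Cldn22 held 26 to 85, 0.375% of those of Wwc2. Besides these 2, only Cldn24, with 18 counts in all, had an annotated transcript stretch of at least 200 bases at 90% identity to the longest transcript of any of the 10 genes, 610 bases at 94.6% to Wwc2. Mob1a and Mob1b share no such stretch.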

How the data were processed

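Poly(A)-selected RNA of 3 Ad-GFP and 3 Ad-Cre-GFP libraries was measured. The authors deposited raw counts by gene for each library, made from BAM files, per the file headers. Listed in the submitters' processing notes are kallisto 0.46.2 and sleuth 0.30.1, with the build GRCm38. Which aligner, counter, strand setting and annotation were used is not given in the sources used here. Symbols, coordinates and lengths came from GENCODE release M21 (GRCm38), which matched 48058 of 48440 gene IDs. The 382 IDs without a match held 0.0381% of counts.

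After filterByExpr and TMM scaling, genes were tested in edgeR 4.0.16 (robust quasi-likelihood, group only) in R 4.3.3. Adjustment ran over all 14811 tested genes. The SE of a log2 fold change was taken from the quasi-likelihood F as the change over the root of F. The test was tested on simulated data. Alternatives used DESeq2 1.42.0, limma-voom 3.58.1, other scaling, filters and dispersion, a replicate block, thinning, GC and length trends, and leaving out each library. Replicate pairs differed by a chi-square per gene of 2.04 to 2.6 (1 for sampling noise alone), except Ad-GFP 2 and Ad-GFP 3 at 4.27. Replicates thus spread more than sampling noise, and all 6 libraries were kept. Copies were searched for with blastn 2.17.0.

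The 10 genes and the lists were chosen with earlier results of these data known. Genes of other lists are named by rule: up to 3 called genes of each list with the smallest adjusted p, genes not called where 5 or fewer, Lats1, Lats2 and the 3 patterns nearest to Wwc1. Markers are named where they are at 0 or carry a sum. Rassf5, Dcn, Star, Amh, Foxl2, Kdr, Pecam1, Cdh5 and the named epithelial markers were picked with their values in view.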

Additional observations from a re-analysis of the deposited data

How the results depend on the processing

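Each of the 10 genes kept its direction and its call under all 16 alternatives, and 10344 genes in all were called in the main analysis against 9351 to 10854 under the alternatives. Log2 changes ran from 1.70 to 1.87 for Wwc1, 0.98 to 1.06 for Wwc2, 0.80 to 0.89 for Nf2, 0.83 to 0.86 for Stk4, 0.14 to 0.18 for Stk3, 0.10 to 0.13 for Mob1a, -0.20 to -0.17 for Sav1, -0.17 to -0.08 for Taok1, -0.33 to -0.27 for Taok3 and -0.50 to -0.39 for Mob1b. With the longest transcript as length, the share of Stk3 moved by -11.6 percentage points between the groups and that of Mob1a by 4.06, and without length scaling that of Mob1a by 6.57, beside -10.1 and 2.86 in the main analysis. Another 34 named genes were followed over the alternatives, and the cell type markers and Rassf5 were not. Of these 34, Strn4 (0.11, adjusted p = 0.0140) and Siah2 (0.17, adjusted p = 0.0209) passed the threshold when GC and length trends were removed. Deviations of same-numbered libraries correlated weakly (0.0756, 0.0789 and 0.0170), beside -0.117 to 0.0459 for libraries of different numbers. Libraries numbered 1 and 2 correlated best with their own number, and those numbered 3 did not. These values do not settle whether the numbers pair cultures. With a replicate block 10478 genes were called and the 10 genes kept their calls. Depth is not limiting for these genes, the lowest value being 718 counts.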
